A study of Mus musculus with 5 samples.

Results

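The NF-κB transcription factors and the inhibitors that they switch on form a feedback circuit in lymphocytes, and the occupancy of RNA polymerase II (Pol II) on 10 of its genes was compared between regulatory T (Treg) cells with and without a functional Setd2 gene. The genes were the 5 subunit genes Nfkb1, Nfkb2, Rel, Rela and Relb, and 5 genes grouped here as inhibitor genes, Nfkbia, Nfkbid, Nfkbiz, Tnfaip3 and Bcl3. They were chosen by name as subunits or feedback inhibitors of NF-κB, and the rule that names them uses no value of the assay, although results of these data were known when they were chosen. Each merged Pol II peak was given to a gene when its midpoint lay inside the annotated gene or within 3 kb upstream of it, and the counts of a gene's peaks were summed. The 10 genes held 92 of the 56615 merged peaks and were 10 of the 13057 genes with a peak.

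NF-κB dimers wait in the cytoplasm of resting cells, bound to IκB proteins. Signals from antigen receptors, costimulatory receptors, TNF receptors and IL-1 family receptors activate the IκB kinase (IKK) complex, IκB is degraded, and the dimer enters the nucleus, where it binds κB sites in DNA. Among its targets are the genes of its own inhibitors and of several of its subunits, and in Treg cells c-Rel (encoded by Rel) and p65 (encoded by Rela) are known for their part in Foxp3 expression and Treg identity.

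Setd2 is the methyltransferase that places trimethylation on lysine 36 of histone H3 behind transcribing Pol II. Ctrl mice were Foxp3CreSetd2flox/+ and KO mice were Foxp3CreSetd2flox/flox, both on the C57BL/6 background and aged 8 weeks, with females and males pooled, so the Treg cells of Ctrl mice carried 1 floxed Setd2 allele and the same Cre. Cre was expressed from the Foxp3 locus together with YFP, which limits deletion to cells that express or have expressed Foxp3. All mice had received complexes of 1 µg IL-2 and 5 µg antibody to IL-2 for 3 consecutive days, which expand Treg cells, and were killed 48 h later. CD3+CD4+YFP+ Treg cells were sorted from pooled spleens of 2 mice, and Pol II was profiled by CUT&Tag, in which an antibody directs a transposase to cut chromatin beside its target, from 80000 nuclei per library. The study's methods describe the Ctrl and KO mice as littermates, without saying which libraries shared a litter. There were 2 libraries of each genotype, here called Ctrl 1, Ctrl 2, KO 1 and KO 2, and an IgG library that was not used here. The study's methods count the nuclei of each library as a biological replicate, but neither they nor the labels say whether the libraries of a genotype came from separate pools of mice, so p-values measure the spread between these libraries, which may be technical in part.

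Nearly all of these genes carried a match to the κB consensus, a DNA pattern of 10 bases, close to the start of the gene. In RefSeq promoters (GRCm38.p6, 250 bases before to 50 after a start site) a match on either strand was present in 8 of 12 promoters of 7 of the genes, against 2779 of all 32851 promoters (8.46%). No match was present in the Rela promoter. The windows of 30 bases below are shown because they mark where NF-κB could bind on the genes whose Pol II counts are described here, and they run 5′ to 3′ in the direction of the gene with the match in capitals. Positions are counted from the start site, and the windows lie at chr10:19015516-19015545 and chr10:19015403-19015432 for Tnfaip3, chr12:55492657-55492686 for Nfkbia, chr7:30422170-30422199 for Nfkbid, chr7:19822734-19822763 for Bcl3, chr19:46304688-46304717 for Nfkb2 and chr11:23771042-23771071 for Rel.
Tnfaip3, match starting at -125: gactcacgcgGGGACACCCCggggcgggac
Tnfaip3, match starting at -12: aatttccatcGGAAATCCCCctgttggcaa
Nfkbia, match starting at -29: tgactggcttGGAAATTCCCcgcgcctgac
Nfkbid, match starting at -226: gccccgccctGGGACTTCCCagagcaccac
Bcl3, match starting at 3: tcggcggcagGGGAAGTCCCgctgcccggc
Nfkb2, match starting at -39: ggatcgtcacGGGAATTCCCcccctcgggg
Rel, match starting at -92: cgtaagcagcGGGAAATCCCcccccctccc

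For Nfkb1, Nfkbiz and Relb the same span around the annotated 5′ end of the gene was read from the GRCm38 genome inside their Pol II peaks. The windows lie at chr3:135691497-135691526, chr16:55838850-55838879, chr7:19629443-19629472 and chr7:19629516-19629545, again in the direction of the gene. The capital letters of the Nfkb1 and Nfkbiz windows were identical.
Nfkb1, match starting at 32: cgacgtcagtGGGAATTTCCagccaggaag
Nfkbiz, match starting at 31: tttttggcctGGGAATTTCCagcgtgtgga
Relb, match starting at -24: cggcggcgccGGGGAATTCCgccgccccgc
Relb, match starting at -97: gtgagcagcgGGGGTTTTCCcattcccttt

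Counted over whole peaks, the consensus was not denser on these genes than elsewhere. Their peaks held 62 matches, or 0.315 per kb, against 0.305 per kb over all merged peaks and 0.309 per kb over merged peaks of 5 kb or more. The density was highest on Nfkb2 (1.06 per kb, 16 matches) and Nfkbia (1.05 per kb, 8 matches) and lowest on Nfkb1 (0.106 per kb, 7 matches). Overlapping matches at shifted positions, as on Rel, Nfkbid and Nfkb2, were each counted, here and over all merged peaks. The Nfkb2 peak runs past the 3′ end of its gene, and the matches there were counted too. A match describes the letters only, and binding of NF-κB was not measured.

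The libraries held 11331274 (Ctrl 1), 5624680 (Ctrl 2), 13351007 (KO 1) and 4489646 (KO 2) counts in the merged peaks, so the library numbered 2 was the shallower one of each genotype. Pol II over the 9 peaks of Setd2 itself came to 512 and 518 normalized counts in Ctrl against 455 and 570 in KO (log2 fold change -0.02 ± 0.19, SE). This sum covers the whole gene and was not read over the deleted part alone, so it does not check the deletion. All 10 Treg and T cell markers had a peak, Foxp3, Il2ra and Cd4 included, with summed normalized counts of 36326 to 42512 per library. A peak was found for 0 of 6 CD8 T and NK cell markers, 4 of 9 myeloid markers (599 to 717 summed counts) and 1 of 5 erythroid markers (189 to 224). The myeloid markers with a peak were Spi1, Tyrobp, Cd14 and Cebpa, and those without were Lyz2, Csf1r, Itgam, Fcgr1 and Adgre1. The summed levels of these lists overlapped between the genotypes.

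Among these genes, Pol II was densest per kb on the inhibitor genes Nfkbia and Tnfaip3, while the other inhibitor genes ranked among the subunit genes. On the scale of normalized counts per kb of gene, averaged over the 4 libraries, Nfkbia ranked 20 and Tnfaip3 ranked 33 among 11893 protein-coding genes with a peak. Nfkb2 ranked 76, Nfkbid 239, Rela 321, Nfkbiz 754, Bcl3 856, Rel 1139, Nfkb1 1228 and Relb 1573. In total counts, not corrected for length, Tnfaip3 ranked 8 and Nfkb1, whose gene is 107 kb long, ranked 22. The level per kb in Ctrl was 1314 ± 136 (SD, n = 2) for Nfkbia and 1152 ± 111 (SD, n = 2) for Tnfaip3, and the libraries of these neighbours in the order overlapped. In KO it was 1379 ± 93.2 (SD, n = 2) for Nfkbia and 849 ± 76.0 (SD, n = 2) for Tnfaip3, with no overlap between the libraries of the genes. The Ctrl libraries of Nfkbiz (155 ± 31.5 per kb), Bcl3 (139 ± 8.96), Rel (127 ± 27.3) and Nfkb1 (108 ± 11.1, SD, n = 2) overlapped from each gene to the next. Both Ctrl libraries of Relb, at 91.2 ± 10.9 (SD, n = 2), lay below both of Nfkb1. Peaks that cross an end of a gene or lie upstream of it were counted with the gene, so levels per kb include counts from beyond it, and Tnfaip3, Nfkbia, Nfkb2, Nfkbid and Rela held more kb of peaks than their own length.

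**Figure D1:**
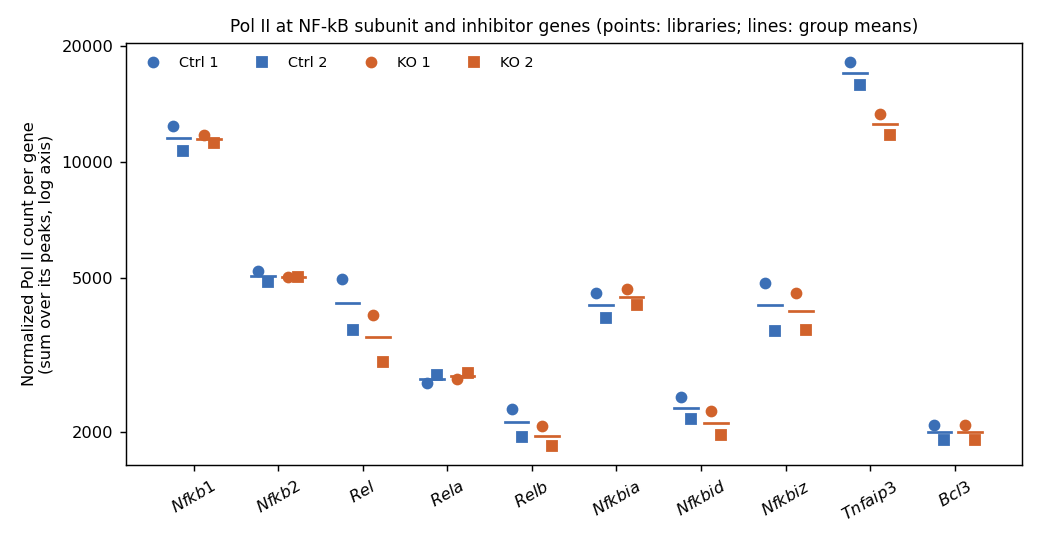
Normalized Pol II counts summed over the peaks of each of the 10 genes (vertical log axis), with 1 point per library and a line at the mean of each genotype. The KO libraries of Tnfaip3, at 13308 and 11724, lie below its Ctrl libraries, at 18143 and 15827, while the libraries of the other 9 genes overlap.

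Between the genotypes the largest log2 fold change was that of Tnfaip3, with lower counts in KO, and the libraries of the other 9 genes overlapped. None of the 10 genes passed an adjusted p of 0.05 in DESeq2 (13 of 13057 genes, 0.0996%, did) or in edgeR (0 of 13054 genes, 0.0%, did). At an unadjusted p of 0.05, 1 of 10 passed in each tool, Tnfaip3, against 2.87% of all genes in DESeq2 (1.42% lower and 1.45% higher in KO) and 4.86% in edgeR. The median log2 fold change, KO over Ctrl, was -0.03 over the 10 genes and -0.00 over all genes. Both KO libraries lay on 1 side of both Ctrl libraries for 1 of the 10 genes, against 34.3% of all genes (16.9% with KO below and 17.5% with KO above). In a bulk library, fewer cells of a kind and less Pol II per cell cannot be told apart.

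Tnfaip3 encodes A20, a ubiquitin-editing enzyme that shuts down signalling upstream of IKK. Its gene lies at chr10:19000910-19015657 on the minus strand. Ctrl 1 held 18143 normalized counts over this gene, Ctrl 2 held 15827, KO 1 held 13308 and KO 2 held 11724. Both KO libraries were below both Ctrl libraries, and the KO mean (12516 ± 1120, SD, n = 2) was 73.7% of the Ctrl mean (16985 ± 1638, SD, n = 2). Its log2 fold change was -0.44 ± 0.12 (SE), with a 95% interval of -0.68 to -0.20, an unadjusted p of 0.000417 and a DESeq2 adjusted p of 0.247. In edgeR the adjusted p was 0.281, and over the other normalizations, filters and peak assignments tried on all 4 libraries without a block it ran from 0.158 to 0.423. Without 1 library the fold change stayed between -0.54 and -0.34, with unadjusted p from 0.000878 to 0.0375 and adjusted p from 0.717 to 1.00. In a fit that took the replicate number as a block the adjusted p was 2.10e-17, but that fit has 1 residual degree of freedom. It passed 114 of 13057 genes (0.873%), while 11644 of the 13057 had no adjusted p and could not pass.

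Nearly all of this count came from 1 peak at chr10:18997500-19017956. At 20457 bp it was the 9th longest of all merged peaks, it spanned the whole gene, and it held both κB windows printed above. Its normalized counts on the scale of the peak table were 18510 and 15597 in Ctrl against 13315 and 11469 in KO, again without overlap. Its log2 fold change was -0.46 ± 0.18 (SE), with an unadjusted p of 0.00859 and a DESeq2 adjusted p of 1.00. A short upstream peak of 786 bp held 71.9 and 66.1 counts in Ctrl against 77.2 and 64.7 in KO (log2 fold change 0.05 ± 0.40, SE). Because a single peak covered promoter and gene body, the occupancy of the promoter and of the gene body of Tnfaip3 cannot be told apart in these counts.

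The other inhibitor genes did not differ between the genotypes beyond the spread. Nfkbia encodes IκBα, the classical inhibitor that is degraded on stimulation and made again within the same response, and its gene lies at chr12:55489410-55492647. Its gene sums were 4568 and 3944 in Ctrl against 4677 and 4250 in KO, which overlapped. Its log2 fold change was 0.07 ± 0.13 (SE), with a 95% interval of -0.18 to 0.32. The main peak, chr12:55485705-55493115, was 7411 bp long and covered the whole gene (0.05 ± 0.18, SE). Promoter and gene body of Nfkbia therefore cannot be told apart in these counts.

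Nfkbid encodes IκBNS, a nuclear IκB protein with a known part in Foxp3 induction, at chr7:30421732-30428746. The gene sums were 2460 and 2159 in Ctrl against 2261 and 1956 in KO, and they overlapped (-0.13 ± 0.14, SE, 95% interval -0.40 to 0.14). The 3 peaks of the gene all had a log2 fold change below 0, with a median of -0.28. Their 95% intervals overlapped, and differences between them were not tested. The 5083 bp peak at the 5′ end also belongs to the neighbouring gene Hcst and held most of the counts (1772 and 1527 in Ctrl, 1706 and 1466 in KO, log2 fold change -0.06 ± 0.19, SE). The next peak, chr7:30425092-30426289, held 359 and 306 counts in Ctrl against 254 and 203 in KO. Its KO libraries were both below the Ctrl libraries (log2 fold change -0.53 ± 0.25, SE), at an unadjusted p of 0.0350 and a DESeq2 adjusted p of 1.00. When the shared peak was left out, the log2 fold change of the gene sum was -0.39 ± 0.19 (SE), with an unadjusted p of 0.0388 and an adjusted p of 1.00. Of the 10581 genes in that fit, 2.84% had an unadjusted p under 0.05 and 0.0662% an adjusted p under 0.05.

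Nfkbiz encodes IκBζ, a nuclear IκB protein that helps NF-κB to switch on secondary response genes, at chr16:55811375-55838899. Its gene sums were 4866 and 3639 in Ctrl against 4570 and 3658 in KO. Ctrl 1 and KO 1 were the high libraries, so the genotypes overlapped, and the log2 fold change of the sum was -0.05 ± 0.16 (SE), with a 95% interval of -0.36 to 0.27. Its largest peak, chr16:55815520-55822608, was also high in Ctrl 1 and KO 1 (2023 and 1280 in Ctrl, 2032 and 1328 in KO, log2 fold change 0.03 ± 0.44, SE). Bcl3 encodes a nuclear IκB protein that binds p50 and p52 dimers, at chr7:19808462-19822770. Its gene sums of 2084 and 1903 in Ctrl against 2083 and 1908 in KO were nearly equal between the genotypes (0.00 ± 0.13, SE, 95% interval -0.26 to 0.26), and the log2 fold change of its largest peak, chr7:19815715-19820541, was 0.06 ± 0.18 (SE). The Bcl3 gene overlaps annotated noncoding genes, whose Pol II could not be counted apart.

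**Figure D2:**
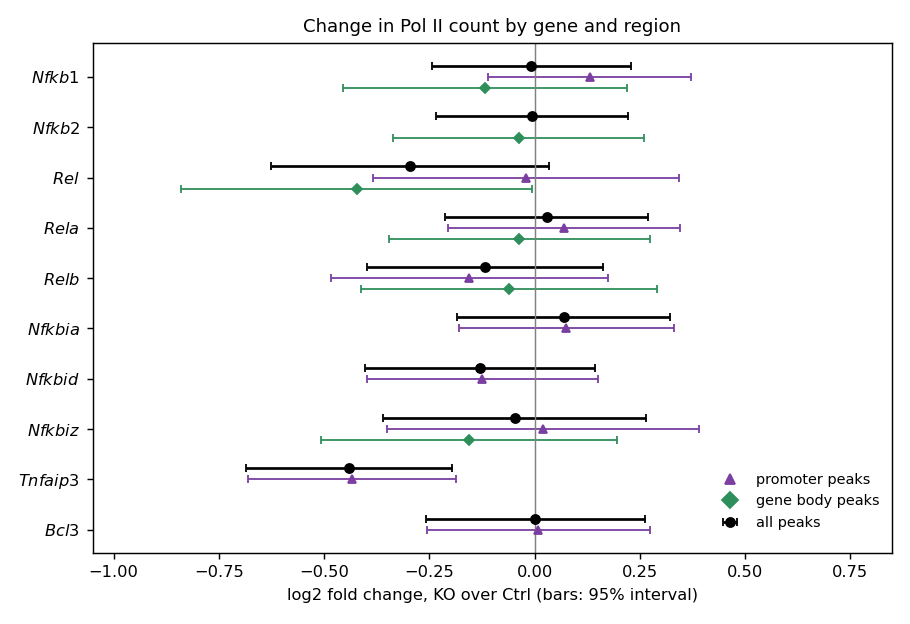
Log2 fold change of the Pol II count, KO over Ctrl, for each gene (horizontal axis, 95% intervals as bars) over all its peaks, its promoter peaks (midpoint within 3 kb of a start site) and its gene body peaks. Start sites include those inside a gene. The interval of Tnfaip3 over all peaks, -0.68 to -0.20, lies below 0, and that of the Rel gene body, -0.84 to -0.01, also excludes 0 before adjustment. The peaks that cover the whole of Tnfaip3, Nfkbia or Nfkb2 take their region label from the midpoint alone.

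Among the subunits, Rel had the lowest fold change, with a lower value over the gene body than over the promoter. Rel encodes c-Rel, the subunit most restricted to lymphoid cells, at chr11:23736847-23770970 on the minus strand. The gene sums were 4979 and 3663 in Ctrl against 4000 and 3030 in KO. The libraries overlapped, since Ctrl 2 was below KO 1, and the log2 fold change of the sum was -0.30 ± 0.17 (SE), with a 95% interval of -0.63 to 0.03, an unadjusted p of 0.0782 and an adjusted p of 1.00. Without Ctrl 1 it was -0.05, without KO 2 it was -0.11, and without Ctrl 2 or KO 1 it was -0.50 or -0.51. With the replicate number as a block the adjusted p of Rel was 0.00109 at the same fold change.

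The promoter sum of Rel was 1156 and 875 normalized counts in Ctrl against 1126 and 874 in KO (log2 fold change -0.02 ± 0.19, SE). Over its gene body the sums were 4013 and 2719 in Ctrl against 2949 and 2069 in KO, and here the log2 fold change came to -0.42 ± 0.21 (SE) at an unadjusted p of 0.0467 and an adjusted p of 1.00. An unadjusted p under 0.05 was reached by 2.46% of genes for promoter sums (0.0824% after adjustment) and by 2.96% for gene body sums (0.0519% after adjustment). The share of the Rel count that lay in promoter peaks was 23.5% (95% Wilson interval 22.6 to 24.5%) and 23.7% (22.1 to 25.3%) in Ctrl against 28.4% (27.4 to 29.5%) and 28.5% (26.4 to 30.6%) in KO. These intervals cover counting error only. The shares did not overlap between the genotypes, which was also so for Nfkb1, and how often this occurs over all genes was not computed. In a test of the genotype-by-region term, the gene body change of Rel minus its promoter change was -0.40 ± 0.20 (SE), with an unadjusted p of 0.0431 and an adjusted p of 1.00. Of the 4848 genes with both kinds of peak, 1.42% had an unadjusted p under 0.05 for this term and 0.0206% an adjusted p under 0.05. With 1 size factor per library the unadjusted p was 0.0569, and with a promoter limit of 1 kb the term was -0.33 and its unadjusted p 0.137. Without any 1 library the term was between -0.49 and -0.30, with unadjusted p from 0.0613 to 0.276.

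All 16 gene body peaks of Rel had a log2 fold change below 0, from -0.68 to -0.10 with a median of -0.38, where 51.1% of all merged peaks were below 0. Both KO libraries were below both Ctrl libraries in 5 of the 16, or 31.3%, against 16.1% of all peaks. These peaks share 1 gene and the same 4 libraries, so they are not independent measurements. The largest of them near the middle of the gene, chr11:23753408-23756805, held 759 and 535 counts in Ctrl against 539 and 402 in KO. The largest promoter peak, chr11:23769665-23772067, which holds the κB window printed above, held 1025 and 710 in Ctrl against 916 and 666 in KO (-0.13 ± 0.24, SE). Upstream of it, a peak at chr11:23772504-23774325 was higher in both KO libraries, with 175 and 149 in Ctrl against 229 and 182 in KO.

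**Figure D3:**
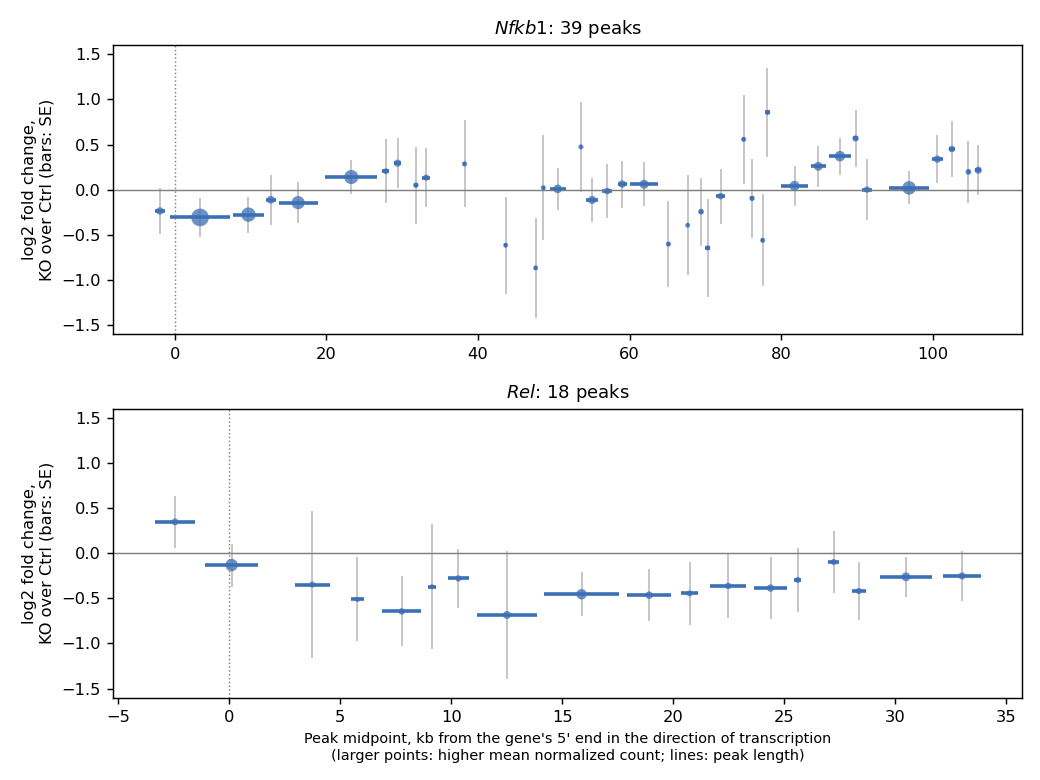
Log2 fold change, KO over Ctrl, of each Pol II peak (vertical axis, bars show SE) against the distance of its midpoint in kb from the 5′ end of Nfkb1 (39 peaks) or Rel (18 peaks), where a longer line is a longer peak and a larger point a higher mean count. The 16 gene body peaks of Rel all lie below 0, while the 10 peaks of Nfkb1 more than 80 kb from its 5′ end all lie above 0.

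Nfkb1, which encodes p105 and its product p50, had nearly equal means in the genotypes. The gene spans chr3:135584655-135691547 on the minus strand, and its sums were 12376 and 10691 in Ctrl against 11766 and 11184 in KO, both KO libraries between the Ctrl libraries (-0.01 ± 0.12, SE, 95% interval -0.24 to 0.23). The fold changes of its 39 peaks lay on both sides of 0. Within 30 kb of the 5′ end 5 of 8 peaks were below 0, with a median log2 fold change of -0.13. Among these was its largest peak, chr3:135684219-135692234, with 2300 and 1721 counts in Ctrl against 1899 and 1344 in KO (-0.31 ± 0.22, SE). From 30 to 80 kb 11 of 21 were below 0, and beyond 80 kb all 10 were above 0, with a median of 0.24 and with both KO libraries above both Ctrl libraries in 6. Over all peaks 51.1% were below 0 and 16.2% had KO above. These distance classes were set after the values were seen, and the trend was not tested. At an unadjusted p of 0.05 DESeq2 listed 0 of the 39 peaks and edgeR 4 (1 lower, the largest peak, and 3 higher).

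The log2 fold change of Nfkb1 was 0.13 ± 0.12 (SE) over promoter peaks and -0.12 ± 0.17 (SE) over gene body peaks, a gene body minus promoter difference of -0.24 ± 0.19 (SE) with an unadjusted p of 0.198. Promoter peaks held 33.7% and 36.5% of its count in Ctrl against 37.2% and 39.6% in KO. Of its 11 promoter peaks, only that at chr3:135692845-135694201 lay upstream of the gene (log2 fold change -0.24 ± 0.26, SE). The others lay at start sites inside the gene, with midpoints 23.3 to 96.9 kb from the 5′ end. Some of these are the same peaks that lay above 0 beyond 80 kb. The largest Nfkb1 peak spans the 5′ end, yet its midpoint lies 3.32 kb inside the gene and so counts as gene body. When peaks that overlap 1 kb on either side of the 5′ end were set against the rest of the gene, a choice made after the values were seen, the difference turned to 0.28 (unadjusted p 0.134). That choice also moved the peaks at internal start sites into the rest of the gene.

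For the remaining subunits the libraries of the genotypes overlapped. Rela encodes p65, the main activating subunit of the canonical pathway, at chr19:5637483-5648130, and its sums of 2666 and 2798 in Ctrl against 2732 and 2846 in KO overlapped (0.03 ± 0.12, SE, 95% interval -0.21 to 0.27). Its largest peak, chr19:5644795-5650165, ran past the 3′ end of the gene (-0.02 ± 0.18, SE). Nfkb2 encodes p100, the precursor of p52 and itself an inhibitor, at chr19:46304320-46312385. A single peak of 15142 bp, chr19:46302614-46317755, covered it, with gene sums of 5224 and 4878 in Ctrl against 5042 and 5021 in KO (-0.01 ± 0.12, SE, 95% interval -0.23 to 0.22). Promoter and gene body of Nfkb2 therefore cannot be told apart in these counts. Relb encodes the partner of p52 in the noncanonical pathway, at chr7:19606217-19629438, and its sums of 2296 and 1938 in Ctrl against 2068 and 1833 in KO overlapped (-0.12 ± 0.14, SE, 95% interval -0.40 to 0.16). The Relb peak at the 5′ end, chr7:19627568-19629940, was its largest (-0.21 ± 0.22, SE). Promoter peaks of Rela and Nfkbiz include peaks at start sites inside the gene. The midpoint of the largest Nfkbiz peak, a promoter peak, lies 19.8 kb from the 5′ end, and that of a Rela promoter peak 6.56 kb. The gene body change minus the promoter change was -0.11 ± 0.20 (SE) for Rela, 0.09 ± 0.23 (SE) for Relb and -0.18 ± 0.19 (SE) for Nfkbiz. These intervals leave room for differences in either direction and do not show that the genes were equal.

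Taking the 92 peaks singly, 0 passed an adjusted p of 0.05 in DESeq2, as did 0 of all 56615 peaks (0.0%), and edgeR also called 0 of the 92. At an unadjusted p of 0.05 DESeq2 listed the 2 lower peaks of Tnfaip3 and Nfkbid named above, against 1.53% of all peaks (0.664% lower and 0.862% higher in KO), and edgeR listed 10, against 3.62% of all peaks in edgeR (0.0477% after adjustment). These 10 were 1 peak of Tnfaip3, 1 of Nfkbid, 4 of Rel and 4 of Nfkb1. The KO libraries did not overlap the Ctrl libraries in 31 of the 92 peaks, 16 below and 15 above, against 32.3% of all peaks (16.1% below and 16.2% above).

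Across the libraries, 9 of the 10 genes had a higher normalized sum in library 1 than in library 2 of the same genotype, Rela being the exception. The difference was greatest for Rel, at 0.44 in Ctrl and 0.40 in KO on the log2 scale, and for Nfkbiz, at 0.42 and 0.32. For Tnfaip3 it was 0.20 and 0.18, and KO was below Ctrl by -0.45 between the libraries numbered 1 and by -0.43 between those numbered 2. For Rel the corresponding values were -0.32 and -0.27. The part of depth in these differences was not tested.

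The wider pathway was described by 74 further genes, listed from textbook knowledge, of which 69 had a peak. None passed an adjusted p of 0.05 in DESeq2 or edgeR, and at an unadjusted p of 0.05 in DESeq2 1 was higher and 2 were lower in KO (edgeR, 5 in all), where 1.45% and 1.42% of all genes were higher and lower in DESeq2 and 4.86% passed in edgeR. The median log2 fold change over the 69 was 0.00. The receptors (9 of 13 measured, median -0.08) included Il1rl1, which encodes ST2, the receptor of IL-33. Its sums were 341 and 290 in Ctrl against 188 and 170 in KO, without overlap, and its log2 fold change came to -0.82 ± 0.24 (SE) at an unadjusted p of 0.000514 and a DESeq2 adjusted p of 0.268. At the other end of the receptors, Tnfrsf1a, a TNF receptor gene, was at 0.18 ± 0.23 (SE).

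Of the 25 adaptors and kinases upstream of IKK (median 0.00), Bcl10, which links antigen receptor signalling to IKK, had sums of 1705 and 1522 in Ctrl against 1405 and 1240 in KO (-0.29 ± 0.14, SE, unadjusted p 0.0476, adjusted p 1.00). The highest value there was that of the IL-1 receptor kinase gene Irak1 (0.40 ± 0.35, SE). The 5 IKK and IKK-related kinase genes had a median of 0.14, from Ikbkg, which encodes the regulatory subunit NEMO (-0.13 ± 0.18, SE), to Tbk1 (0.20 ± 0.16, SE). The other IκB genes Nfkbib and Nfkbie were at -0.05 ± 0.13 and -0.13 ± 0.27 (SE).

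The other brakes on the pathway (10 genes, median 0.04) held the 1 higher gene, N4bp1, which encodes a ribonuclease that restrains NF-κB signalling. Its sums of 2664 and 2573 in Ctrl against 3226 and 3423 in KO did not overlap (0.34 ± 0.12, SE, unadjusted p 0.00506, adjusted p 0.924). The lowest of the brakes, the deubiquitinase gene Otud7b, had few counts (-0.23 ± 0.64, SE). Among the target genes (18 of 19 measured, median -0.02) the extremes were Irf4, a transcription factor gene, at 0.23 ± 0.15 (SE) and Ccr7, a chemokine receptor gene, at -0.24 ± 0.13 (SE).

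**Figure D4:**
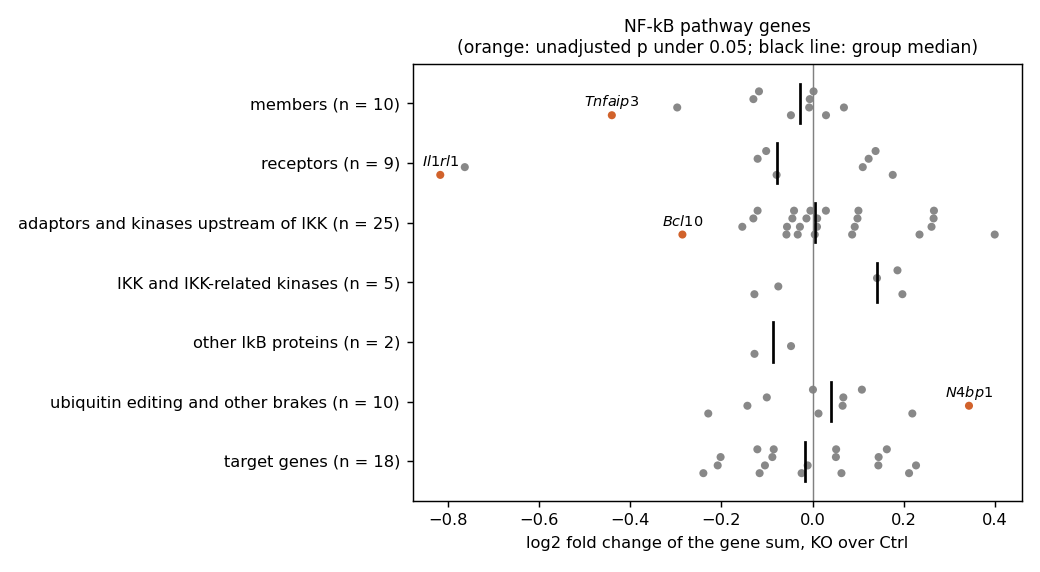
Log2 fold change of the Pol II gene sum, KO over Ctrl (horizontal axis), for the 10 genes and for 69 further pathway genes by role, with 1 point per gene, orange where the unadjusted p is under 0.05 and a black line at each median. The group medians lie between -0.09 and 0.14, and the orange points are Tnfaip3, Il1rl1, Bcl10 and N4bp1.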

How the data were processed

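Pol II CUT&Tag libraries were sequenced with 150 bp paired ends. The submitters' notes and the study's methods name FastQC, Bowtie2 (mm10), MACS2 (p 0.01) and bedtools, and versions are not given in the sources used here. The deposited table holds raw counts per merged peak, counted by the authors. Columns without a sample numbered 0. Peaks were given to GENCODE M21 genes (GRCm38, equal to mm10), and counts were summed per gene. KO was compared with Ctrl over the 4 libraries with DESeq2 1.42.0 (R 4.3.3), the study's tool, by its Wald test on all genes or peaks, two-sided, with Benjamini-Hochberg adjustment. edgeR 4.0.16 quasi-likelihood tests, other size factors, filters, peak assignments, a replicate block and leaving out each library were alternatives. The scripts were tested on simulated data. Named were all 10 genes, their largest peaks and peaks with an unadjusted p under 0.05, and pathway genes past that p or extreme in their group; the Rel peaks at chr11:23753408 and chr11:23772504 and the short Tnfaip3 peak were named after their values were seen. The genes, lists and tests were chosen with earlier results of these data known. The B cell marker list is not reported here.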

Additional observations from a re-analysis of the deposited data

How the results depend on the processing

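The libraries numbered 2 were the shallower ones, with 5624680 (Ctrl) and 4489646 (KO) counts. With 2 libraries per genotype the standard error of the log2 fold change was between 0.12 and 0.17 for the 10 genes. It was larger for some of the further pathway genes. The labels do not say that a replicate number marks a shared batch, and with 2 numbers the samples were treated as sharing only a number. The study's methods describe the Ctrl and KO mice as littermates, but they do not link litters to replicate numbers. Deviations from the genotype means correlated between the Ctrl and KO libraries of the same number (Pearson r = 0.369 across 13057 genes, which are not independent replicates). With the replicate number as a block, 2 of the 10 genes passed an adjusted p of 0.05 in place of 0 (Rel, -0.30, adjusted p 0.00109, and Tnfaip3, -0.44, adjusted p 2.10e-17), as did 1 further pathway gene, N4bp1, and 1 peak (Tnfaip3, -0.46, adjusted p 4.56e-06). In these fits DESeq2 gave no adjusted p for 11644 of all genes, 41 of the 69 pathway genes and 40 of the 92 peaks.

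Under every other alternative on gene sums or peaks, 0 of the 10 genes, 0 of the pathway genes and 0 of the 92 peaks passed an adjusted p of 0.05. Values near 0 changed sign. With total-count size factors Nfkb1 was 0.0063, Nfkb2 0.0072, the Nfkb2 peak 0.0060 and the largest Rela peak 0.0061. With promoter peaks only Nfkb1 was 0.13 and Nfkbiz 0.020, with gene body peaks only Rela was -0.036, and with unshared peaks only Bcl3 was -0.0075. With peaks at the 5′ end set against the rest, an alternative chosen after seeing the data, the gene body minus promoter difference of Nfkb1 was 0.28. The causes were not tested.

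Without 1 library, where the lone library of a genotype is assumed to vary like the others, gene sums ranged from -0.11 to 0.10 for Nfkb1, -0.055 to 0.047 for Nfkb2, -0.51 to -0.055 for Rel, -0.0032 to 0.064 for Rela, -0.23 to 0.014 for Relb, -0.033 to 0.18 for Nfkbia, -0.24 to -0.029 for Nfkbid, -0.24 to 0.18 for Nfkbiz, -0.54 to -0.34 for Tnfaip3 and -0.065 to 0.072 for Bcl3. The largest peaks ranged from -0.58 to -0.075 for Nfkb1, -0.096 to 0.059 for Nfkb2, -0.39 to 0.17 for Rel, -0.060 to 0.022 for Rela, -0.41 to 0.037 for Relb, -0.081 to 0.19 for Nfkbia, -0.17 to 0.064 for Nfkbid, -0.32 to 0.40 for Nfkbiz and -0.016 to 0.15 for Bcl3. The gene body minus promoter difference ranged from -0.053 to 0.22 for Relb, -0.41 to -0.067 for Nfkb1, -0.17 to -0.042 for Rela and -0.26 to -0.084 for Nfkbiz. Of the values of single genes and peaks under all alternatives, 231 kept their direction and side of the threshold, 35 changed direction and 3 passed the threshold, the latter with the block.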
